A study of Danio rerio with 20 samples.

Results

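The genes described here encode subunits of respiratory complexes II to V in zebrafish cardiomyocytes. Their levels were followed through heart regeneration in wild type and in kita/kitb mutants. Members were all gene symbols of the deposited expression matrix that begin with sdha, sdhb, sdhc, sdhd, uqcr, cyc1, cycsb, cox4 to cox8 or atp5, with a CPM (reads of the gene scaled to a fixed library total) of at least 1 in at least 2 libraries. There were 51 such genes among 14781 named genes, and all 51 matching symbols reached that level. They comprised 8 genes of complex II, 9 of complex III, 1 cytochrome c gene, 17 of complex IV and 16 of complex V. Of the 51, 47 were counted as subunits or the cytochrome c carrier, among them cox7a3, which RefSeq lists as cox7a2l. The other 4 are the complex II assembly factors sdhaf2, sdhaf3 and sdhaf4, and atp5s, a coupling factor that RefSeq lists as dmac2l.

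The respiratory chain sits in the inner mitochondrial membrane. Complex II (succinate dehydrogenase) takes electrons from succinate, complex III (the cytochrome bc1 complex) passes them to cytochrome c, and complex IV (cytochrome c oxidase) hands them to oxygen. Complexes III and IV pump protons while doing so, and complex V (ATP synthase) uses the return flow of protons to make ATP. Cardiomyocytes contain many mitochondria and draw most of their ATP from this chain. Zebrafish replace lost ventricular muscle by division of remaining cardiomyocytes, and reduced expression of respiratory genes during that process is a known feature of the regenerating heart.

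Polyadenylated RNA was sequenced from cardiomyocytes isolated from adult ventricles, as bulk libraries. The mutant fish carried kita(w34b2) and kitb(sa15356), alleles of the zebrafish genes for the kit receptor (a tyrosine kinase), and were compared with wild type. Both genotypes were sampled untouched and at 2, 5, 7 and 14 days after about 20% of the ventricle was resected at the apex (days post injury, dpi), at 4 to 6 months of age. Each of the 10 groups had 2 libraries, each from 8 pooled ventricles. All groups were cardiomyocyte preparations. Genes encoded by mitochondrial DNA were not analysed here.

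Assigned reads ranged from 14.6 to 31.7 M per library. In the mutant untouched, 2 dpi and 7 dpi groups the 2 libraries were nearly identical, with a mean chi-square per gene of 1.95 to 3.73, a measure expected near 1 from read sampling, while the remaining 7 groups had 13.9 to 46.6. Whether each such pair came from separate preparations is not labelled, so counts are also given with each of the 3 pairs averaged to 1 library. The mutant 2 dpi pair alone carried a label of sequencing lane 7. All others carried one of lane 8, where 4 sample-sheet numbers occurred in both genotypes. The lane 7 pair also had the most reads, 31.7 and 29.3 M, where no other library passed 23.2 M. Differences of mutants at 2 dpi from any other group therefore cannot be told apart from differences of lane. The labels name no sequencing run, so whether runs differed between genotypes is not known. Of 20 cardiomyocyte markers 14 were in the matrix, and none of these was at 0 in any library.

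Values below are scaled CPM, the deposited CPM divided by a library factor. A difference is the fitted log2 difference of scaled CPM + 1 with its standard error, from limma with 2 libraries in each group. Rose, fell, higher and lower refer to a Benjamini-Hochberg adjusted p under 0.05 over 10914 tested genes. Levels are compared between groups for 1 gene and never between genes, since lengths are not known. Replicates measure the spread between these libraries only, which may be technical.

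The summed level of the 51 genes followed a different course in each genotype. In mutant cardiomyocytes the sum averaged 32587 ± 489 scaled CPM in untouched hearts, 10949 ± 86.7 at 2 dpi, 32697 ± 1423 at 5 dpi, 26672 ± 312 at 7 dpi and 20905 ± 2793 at 14 dpi (SD, n = 2). In wild-type cardiomyocytes it averaged 38154 ± 4317, 22409 ± 5580.0, 22717 ± 1075, 18689.6 ± 1149 and 28604 ± 3427 at the same times. The mutant level at 2 dpi was 33.6% of the mutant untouched level, was at 100.3% by 5 dpi, and stood at 64.2% by 14 dpi. The wild-type level stood at 58.7%, 59.5% and 49.0% of untouched at 2, 5 and 7 dpi, and at 75.0% at 14 dpi. These percentages depend on the library factors. By share of assigned reads, mutants had 2.92% untouched and 1.26%, 2.95%, 2.66% and 2.20% at 2, 5, 7 and 14 dpi. Wild type had 3.43%, 2.48%, 2.35%, 1.99% and 2.64% at the same times. The 2 mutant libraries at 14 dpi had 2.21% and 2.18%, with library factors of 0.967 and 1.15.

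**Figure D1:**
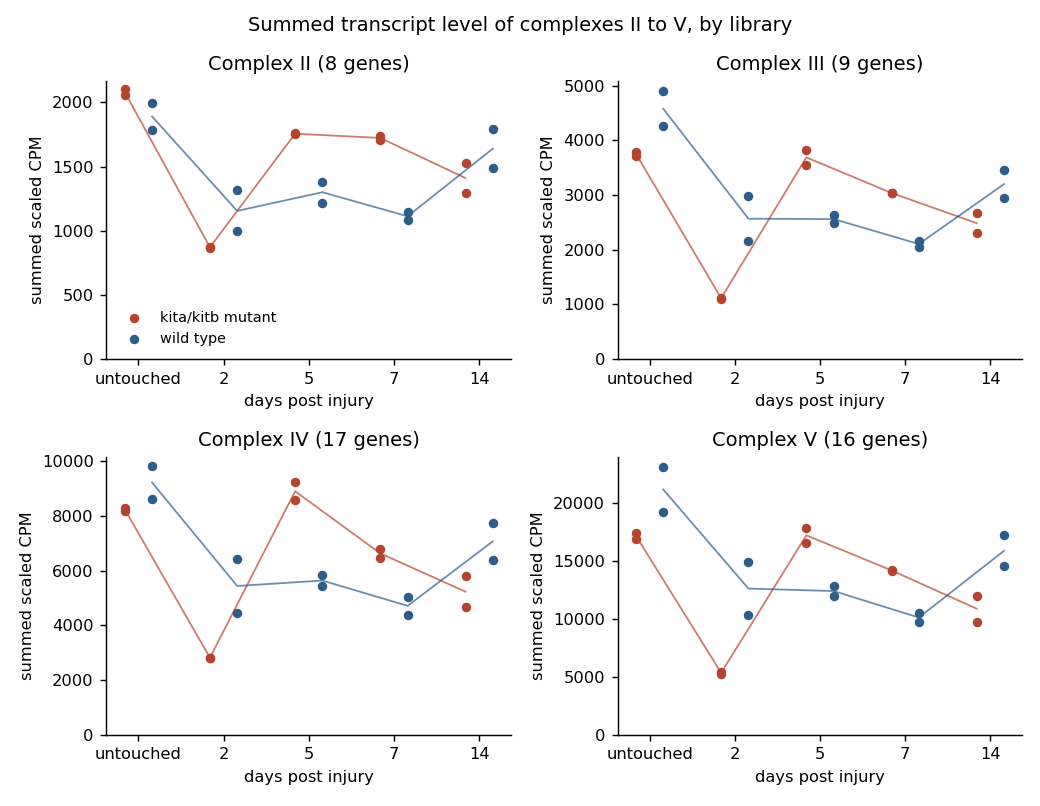
Summed scaled CPM of each complex (vertical axes, linear from 0) in every library, by days post injury (evenly spaced), with kita/kitb mutants left and wild type right at each time; points are libraries and lines join group means. In all 4 complexes the mutant pair at 2 dpi is the lowest of the 10 groups.

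Gene by gene, 47 of the 51 genes fell and 2 rose in mutants at 2 dpi against untouched, with a median log2 difference of -1.50, where 24.9% of all tested genes fell and 27.5% rose. At 5 dpi in mutants 1 fell and 2 rose, against a background of 25.3% and 26.0%, a share of members below the background. At 7 dpi in mutants 1 fell and 1 rose, against 5.74% and 8.83%, with a median of -0.29. At 14 dpi in mutants 45 fell and 1 rose, against 18.2% and 21.3%, with a median of -0.61. With the near-identical pairs averaged, the counts of genes that fell and rose were 47 and 1 at 2 dpi, 0 and 1 at 5 dpi, 0 and 0 at 7 dpi, and 20 and 1 at 14 dpi. The shares of all genes lower and higher in that fit were 14.1% and 15.1% at 2 dpi, 17.4% and 16% at 5 dpi, 0.534% and 2.09% at 7 dpi and 8.82% and 10.9% at 14 dpi. Without mutant 14 dpi replicate 2, 28 genes were called at 14 dpi. The 5 dpi count of 3 was 5 without either wild-type 2 dpi library, and 1 without either untouched mutant library or mutant 5 dpi replicate 1. The 7 dpi count of 2 was 11 without either wild-type 2 dpi library, 0 without mutant 7 dpi replicate 1, and 1 without mutant 7 dpi replicate 2 or any 1 library of untouched mutants, mutants at 2 or 5 dpi, or wild type at 5 or 7 dpi. The split at 5 dpi depended on the scaling: 2 genes fell and 2 rose on CPM as deposited, and 5 fell and 3 rose after quantile normalization.

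In wild type, 47 genes fell and 2 rose at 2 dpi against untouched, with a median of -0.73 and a background of 25.2% lower and 26.4% higher. At 5 dpi 47 fell and 1 rose (median -0.72, background 17.0% and 15.9%). At 7 dpi 48 fell and 2 rose (median -0.98, background 17.3% and 17.5%). At 14 dpi 24 fell and 1 rose (median -0.42, background 11.6% and 13.2%). The 14 dpi count was the least stable, with 8 genes called when replicate 2 of untouched wild type was left out and 7 when replicate 2 of wild type at 14 dpi was. Averaging the near-identical pairs, which lowers the degrees of freedom of the fit, left 14 lower and 1 higher at 14 dpi, where 7.9% and 9.01% of all genes were called. Within wild type 43 of the 51 genes had their lowest group mean at 7 dpi, whereas within mutants 47 had it at 2 dpi.

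Between 7 and 14 dpi the order of the genotypes changed, with the summed level higher in mutants than in wild type at 7 dpi and lower at 14 dpi. In mutants, 10 of the 51 genes were lower at 14 than at 7 dpi and none higher, against 10.9% and 12.4% of all tested genes, with a median of -0.34. In wild type, 35 were higher at 14 than at 7 dpi and none lower, against 8.96% higher and 8.81% lower, with a median of 0.57. The mutant count was 0 without mutant 7 dpi replicate 1, mutant 7 dpi replicate 2 or mutant 14 dpi replicate 2, 5 or 6 without either library of the mutant untouched or 2 dpi pair, 20 without mutant 14 dpi replicate 1, and 27 without either wild-type 2 dpi library. The wild-type count was 2 without 14 dpi replicate 1 and 9 without 7 dpi replicate 1. With the pairs averaged the counts were 0 in mutants, where 1.43% and 3.05% of all genes were lower and higher, and 17 higher in wild type, where these shares were 5.01% and 3.82%.

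**Figure D2:**
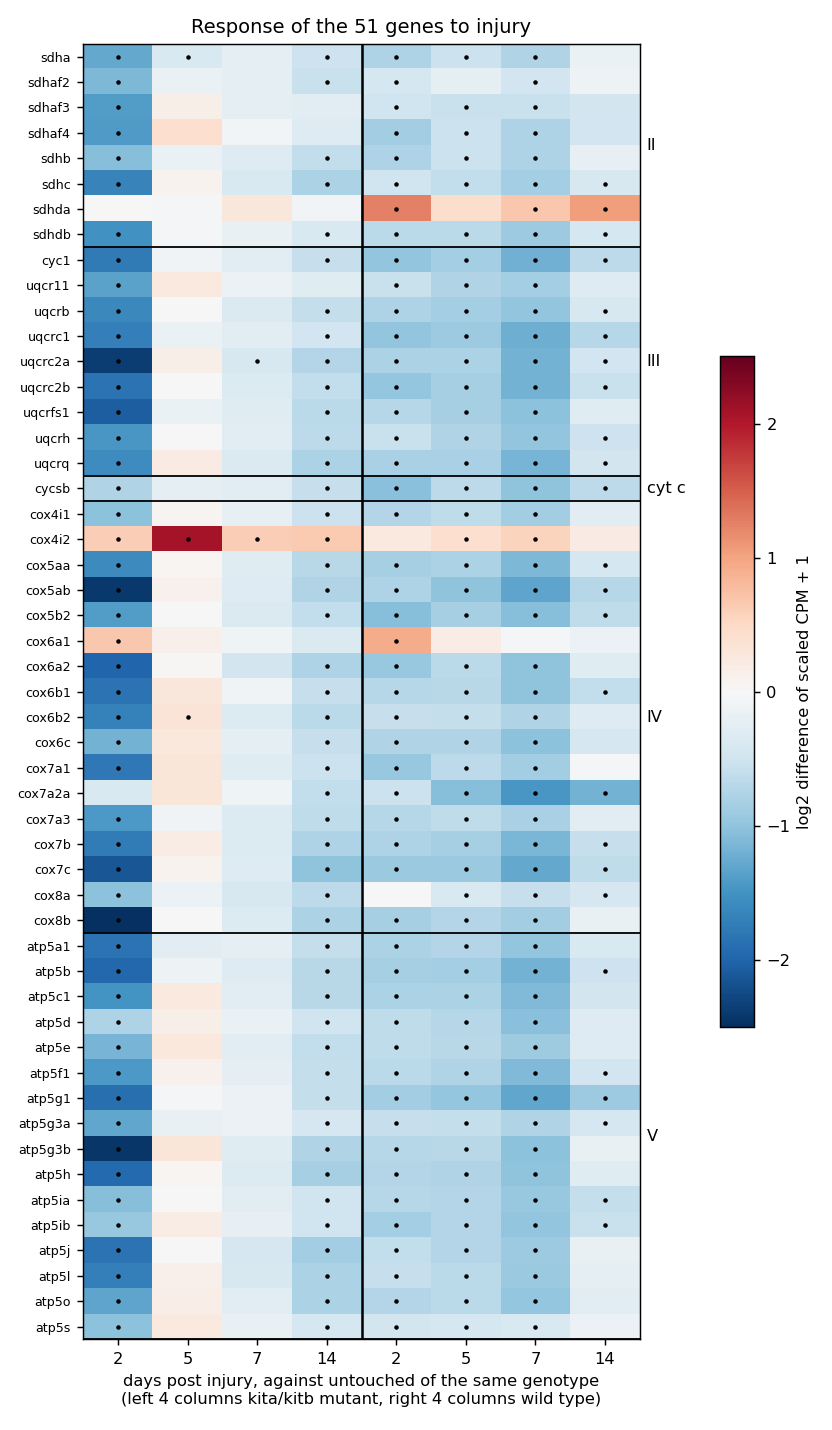
Log2 difference of scaled CPM + 1 against untouched of the same genotype (colour) for each of the 51 genes (rows, by complex) at 2, 5, 7 and 14 dpi, mutants in the left 4 columns and wild type in the right 4; black dots mark an adjusted p under 0.05. Columns of blue in mutants at 2 dpi and in wild type at 2 to 7 dpi stand beside nearly white mutant columns at 5 and 7 dpi, with cox4i2, cox6a1 and wild-type sdhda in red.

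Complex II couples the citric acid cycle to the chain. Its genes had a median difference of -1.34 in mutants at 2 dpi, -0.45 in mutants at 14 dpi, and -0.59, -0.54, -0.76 and -0.30 in wild type at 2, 5, 7 and 14 dpi. The summed level of its 8 genes at 2 dpi was 41.9% of untouched in mutants and 61.1% of untouched in wild type. At 5 dpi the mutant sum stood at 84.4% of untouched, the lowest of the 4 complexes at that time. The median difference of the complex II genes in mutants at 5 dpi was -0.03, or 0.01 after quantile normalization. Among them sdha alone was called lower there.

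The flavoprotein gene sdha encodes the subunit that oxidises succinate. In mutants sdha had a scaled CPM of 1119.6 and 1151 in untouched hearts, 467 and 465 at 2 dpi, 851 and 888 at 5 dpi, 959 and 969 at 7 dpi and 849.5 and 735 at 14 dpi. Wild-type libraries had 953 and 1064 in untouched hearts, 511 and 672 at 2 dpi, 633 and 763 at 5 dpi, 591 and 605 at 7 dpi and 990.1 and 818 at 14 dpi. Mutant values at 5, 7 and 14 dpi were all below both mutant untouched values. sdha fell in mutants at 5 dpi (-0.38 ± 0.13, adjusted p = 0.0248, or 0.15 with the near-identical pairs averaged), and was the one member lower at that time. That call was lost without either mutant 5 dpi library or either mutant untouched library, where the difference was -0.42 to -0.36 (adjusted p of 0.0578 to 0.109). It fell in mutants at 2 dpi (-1.28 ± 0.13, adjusted p = 7.30e-07) and in wild type at 7 dpi (-0.75 ± 0.13, adjusted p = 3.86e-04). The iron-sulfur subunit gene sdhb moved similarly, at -1.06 ± 0.13 (adjusted p = 5.91e-06) in mutants at 2 dpi and -0.78 ± 0.13 (adjusted p = 2.79e-04) in wild type at 7 dpi. sdhc encodes a membrane anchor, and its difference was -1.67 ± 0.13 (adjusted p = 3.22e-08) in mutants at 2 dpi and -0.50 ± 0.13 (adjusted p = 0.0049) in wild type at 2 dpi. The wild-type call of sdhc was lost without wild-type 2 dpi replicate 1 or wild-type untouched replicate 2, where the difference was -0.39 to -0.26 (adjusted p of 0.0594 to 0.108).

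The second membrane anchor, subunit D, has paralogous genes sdhda and sdhdb in zebrafish, which moved apart. In mutants sdhda had a scaled CPM of 1.25 and 0.893 in untouched hearts, 1.1 and 1.01 at 2 dpi, 0.633 and 1.49 at 5 dpi, 1.61 and 1.43 at 7 dpi and 0.887 and 1.05 at 14 dpi. In wild type sdhda had 1.09 and 1.95 in untouched hearts, 4.59 and 5.33 at 2 dpi, 2.38 and 2.40 at 5 dpi, 3.51 and 2.50 at 7 dpi and 4.48 and 3.79 at 14 dpi. All 8 injured wild-type libraries lay above both untouched ones, while mutant values overlapped between untouched and injured hearts at 2, 5 and 14 dpi. sdhda rose in wild type at 2 dpi (1.26 ± 0.21, adjusted p = 1.35e-04), 7 dpi (0.68 ± 0.21, adjusted p = 0.0203) and 14 dpi (1.04 ± 0.21, adjusted p = 0.00206). The call at 7 dpi was lost without wild-type 7 dpi replicate 1 or wild-type untouched replicate 1, where the difference was 0.43 to 0.49 (adjusted p of 0.181 to 0.211). It lay lower in mutants than wild type at 2 dpi (-1.53 ± 0.21, adjusted p = 1.60e-05) and 14 dpi (-1.38 ± 0.21, adjusted p = 1.87e-04). The differences at 5 dpi (-0.75 ± 0.21, adjusted p = 0.0113) and 7 dpi (-0.66 ± 0.21, adjusted p = 0.0309, or 0.185 with the near-identical pairs averaged) were also past the threshold. The call at 5 dpi was lost without mutant 5 dpi replicate 1 or either wild-type 5 dpi library, where the difference was -0.75 to -0.44 (adjusted p of 0.0506 to 0.18). That at 7 dpi was lost without either mutant 7 dpi library or wild-type 7 dpi replicate 1, where the difference was -0.71 to -0.48 (adjusted p of 0.0931 to 0.22). The pseudocount of 1 shrinks these differences at so low a level. sdhdb, in contrast, fell in mutants at 2 dpi (-1.51 ± 0.12, adjusted p = 3.69e-08) and in wild type at 7 dpi (-0.91 ± 0.12, adjusted p = 2.42e-05). RefSeq's synonyms for sdhda and sdhdb are crossed, so which symbol names which paralog is uncertain, and here the matrix symbols are kept.

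The assembly factors followed the subunits in part. sdhaf2, which adds the flavin cofactor to subunit A, had 96.9 and 86.5 scaled CPM in untouched mutants and 62.3 and 61.9 in untouched wild type. The mutant libraries lay above the wild-type ones, and the difference was 0.55 ± 0.13 (adjusted p = 0.0025). It was the one member higher in untouched mutants, and it was also higher in mutants at 5 dpi (0.61) and 7 dpi (0.78). sdhaf3 and sdhaf4, which aid maturation of subunits B and A, fell in mutants at 2 dpi (-1.40 and -1.41) and passed the threshold in wild type at 2, 5 and 7 dpi. The wild-type calls of sdhaf3 at all 3 times and of sdhaf4 at 5 dpi were lost with the near-identical pairs averaged (adjusted p of 0.0513 to 0.0618). The sdhaf3 call at 2 dpi was lost without wild-type 2 dpi replicate 1 or wild-type untouched replicate 2, where the difference was -0.39 to -0.21 (adjusted p of 0.175 to 0.383). Those at 5 and 7 dpi were lost without either wild-type library of that time or wild-type untouched replicate 2 (difference of -0.59 to -0.44). The sdhaf4 call at 5 dpi was lost without either wild-type library of untouched hearts or of 5 dpi (difference of -0.64 to -0.43).

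In complex III all 9 genes fell in mutants at 2 dpi (median -1.72, range -2.36 to -1.33), and all 9 fell in wild type at 2 dpi (-0.99 to -0.55), 5 dpi (-0.90 to -0.75) and 7 dpi (-1.22 to -0.84). In mutants at 5 dpi none of the 9 was called, with differences of -0.17 to 0.25. Its summed level at 2 dpi was 29.6% of untouched in mutants and 56.1% of untouched in wild type. At 14 dpi 8 of the 9 were lower than untouched in mutants and 7 of the 9 in wild type. Over all tested genes 18.2% were lower in mutants and 11.6% in wild type at that time. The limit on these calls is that, over all complexes, counts at 14 dpi were smaller with the near-identical pairs averaged. The mutant count was also smaller without mutant 14 dpi replicate 2. The wild-type count was smaller without wild-type untouched replicate 2 or wild-type 14 dpi replicate 2.

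uqcrc1 encodes a core protein of complex III. In mutants it had a scaled CPM of 665 and 674 in untouched hearts, 206 and 200.1 at 2 dpi, 623 and 576 at 5 dpi, 554 and 539 at 7 dpi and 503 and 460.0 at 14 dpi. Its wild-type values were 751 and 873 in untouched hearts, 349.8 and 477 at 2 dpi, 423 and 445 at 5 dpi, 341 and 356 at 7 dpi and 512 and 482 at 14 dpi. No injured wild-type library reached the lower untouched one. uqcrc1 fell in mutants at 2 dpi (-1.72 ± 0.12, adjusted p = 1.09e-08) and in wild type at 7 dpi (-1.22 ± 0.12, adjusted p = 1.63e-06), and was still lower in wild type at 14 dpi (-0.70 ± 0.12, adjusted p = 5.57e-04). cyc1, cytochrome c1, which hands electrons to cytochrome c, showed -1.76 ± 0.15 (adjusted p = 5.55e-08) in mutants at 2 dpi and -1.20 ± 0.15 (adjusted p = 1.14e-05) in wild type at 7 dpi. uqcrfs1, the Rieske iron-sulfur protein, showed -2.06 ± 0.13 (adjusted p = 2.14e-09) in mutants at 2 dpi and -0.72 ± 0.13 (adjusted p = 1.82e-04) in wild type at 2 dpi.

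The other core protein has paralogous genes uqcrc2a and uqcrc2b. In mutants uqcrc2a had a scaled CPM of 154 and 151 in untouched hearts, 31.1 and 26.6 at 2 dpi, 176 and 161 at 5 dpi, 115 and 116 at 7 dpi and 98.1 and 84.6 at 14 dpi. In wild type it had 215 and 259.7 in untouched hearts, 120.4 and 154 at 2 dpi, 132 and 140.4 at 5 dpi, 101 and 107 at 7 dpi and 183 and 158 at 14 dpi. The mutant 2 dpi values were the lowest of all 20. uqcrc2a showed the largest fall of complex III in mutants at 2 dpi (-2.36 ± 0.13, adjusted p = 6.17e-10). It lay lower in mutants than wild type in untouched hearts (-0.63 ± 0.13, adjusted p = 9.03e-04), at 2 dpi (-2.21 ± 0.13, adjusted p = 4.41e-09) and at 14 dpi (-0.89 ± 0.13, adjusted p = 1.01e-04). uqcrc2b was lower in mutants at the same 3 times, with log2 differences of -0.59, -1.46 and -0.64, the first of them with an adjusted p of 0.0515 with the near-identical pairs averaged. The small subunit genes uqcrb, uqcrh, uqcrq and uqcr11 fell in mutants at 2 dpi between -1.33 (uqcr11) and -1.61 (uqcrb). At 5 dpi uqcrq was higher in mutants, which had 457 and 431 scaled CPM against 212 and 227 in wild type (1.01 ± 0.17, adjusted p = 2.34e-04).

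Cytochrome c, the mobile carrier between complexes III and IV and an activator of apoptosis once released, was represented by cycsb. In mutants cycsb had a scaled CPM of 1373 and 1322 in untouched hearts, 772 and 835 at 2 dpi, 1011 and 1267 at 5 dpi, 1105 and 1098 at 7 dpi and 897 and 908 at 14 dpi. Wild-type libraries had 1184 and 1403 in untouched hearts, 535 and 727 at 2 dpi, 807 and 826 at 5 dpi, 674 and 611 at 7 dpi and 823 and 806 at 14 dpi. Its lowest group mean over all 10 groups was wild type at 2 dpi, unlike the 45 members that were lowest in mutants at 2 dpi. It fell in mutants at 2 dpi (-0.75 ± 0.14, adjusted p = 2.44e-04) and in wild type at 2 dpi (-1.05 ± 0.14, adjusted p = 1.24e-05). cycsb was the one member higher in mutants than in wild type at 2 dpi (0.36 ± 0.14, adjusted p = 0.0322, or 0.158 with the near-identical pairs averaged), and it was higher at 5 dpi (0.47 ± 0.14, adjusted p = 0.0133) and 7 dpi (0.78 ± 0.14, adjusted p = 7.23e-04). The call at 2 dpi was lost without either mutant 2 dpi library or wild-type 2 dpi replicate 1, where the difference was 0.14 to 0.42 (adjusted p of 0.0627 to 0.408). That at 5 dpi was lost without mutant 5 dpi replicate 2 or wild-type 5 dpi replicate 1, where the difference was 0.31 to 0.45 (adjusted p of 0.0713 to 0.151). The response at 2 dpi differed between genotypes by 0.30 ± 0.19 (adjusted p = 0.234), which did not pass the threshold.

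Complex IV held both the largest fall and the largest rise of any member in mutants at 2 dpi. In mutants at 2 dpi 14 of its 17 genes fell and 2 rose, with a range of -2.50 to 0.67. In wild type 14 fell and 1 rose at 2 dpi (-1.07 to 0.93), 15 fell and 1 rose at 5 dpi, and 15 fell and 1 rose at 7 dpi (-1.46 to 0.55). At 14 dpi 15 fell and 1 rose in mutants (background 18.2% and 21.3%), and 8 fell in wild type (background 11.6%). The limit given for complex III at 14 dpi applies here too. The summed level at 5 dpi was 108% of untouched in mutants and 61.1% of untouched in wild type.

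Several complex IV subunits come in paralogous forms whose mammalian counterparts differ in tissue. cox6a2 and cox7a1 are named after mammalian forms of heart and skeletal muscle, and cox4i2 after a mammalian form found in lung and raised by low oxygen. In mutants cox6a2 had a scaled CPM of 1586 and 1639 in untouched hearts, 421 and 397 at 2 dpi, 1708 and 1571 at 5 dpi, 1147 and 1207 at 7 dpi and 1112 and 796 at 14 dpi. In wild type cox6a2 had 1698 and 1939 in untouched hearts, 773 and 1138 at 2 dpi, 1108 and 1171 at 5 dpi, 834 and 983 at 7 dpi and 1723 and 1255 at 14 dpi. Both 2 dpi pairs were well below their untouched pairs. It fell in mutants at 2 dpi (-1.98 ± 0.18, adjusted p = 2.15e-07) and in wild type at 2 dpi (-0.95 ± 0.18, adjusted p = 4.70e-04).

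cox6a1, the paralog of cox6a2, went the other way at 2 dpi. In mutants cox6a1 had a scaled CPM of 75.5 and 83.2 in untouched hearts, 133 and 122 at 2 dpi, 90.7 and 82.9 at 5 dpi, 73.0 and 74.9 at 7 dpi and 77.0 and 48.7 at 14 dpi. In wild type cox6a1 had 64.4 and 89.7 in untouched hearts, 132 and 162 at 2 dpi, 85.6 and 88.1 at 5 dpi, 80.2 and 68.2 at 7 dpi and 66.4 and 70.7 at 14 dpi. The 4 libraries of 2 dpi were the 4 highest of the 20. It rose in mutants at 2 dpi (0.67 ± 0.18, adjusted p = 0.0043, or 0.0953 with the near-identical pairs averaged) and in wild type at 2 dpi (0.93 ± 0.18, adjusted p = 3.75e-04), and passed the threshold at no later time in either genotype.

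cox4i1 encodes the common form of subunit 4, a subunit that joins early in assembly of complex IV. In mutants it had a scaled CPM of 823 and 777 in untouched hearts, 391 and 392 at 2 dpi, 849.7 and 827 at 5 dpi, 671 and 716 at 7 dpi and 604 and 500.3 at 14 dpi. Its wild-type values were 936 and 1042 in untouched hearts, 496 and 718 at 2 dpi, 599 and 666 at 5 dpi, 494 and 588 at 7 dpi and 898 and 756 at 14 dpi. The mutant 2 dpi pair was the lowest of the 20 libraries. It fell in mutants at 2 dpi (-1.03 ± 0.15, adjusted p = 2.73e-05) and in wild type at 7 dpi (-0.87 ± 0.15, adjusted p = 2.93e-04).

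Its paralog cox4i2 moved the other way. In mutants cox4i2 had a scaled CPM of 9.24 and 9.18 in untouched hearts, 15.1 and 14.1 at 2 dpi, 44.8 and 39.9 at 5 dpi, 15.6 and 13.7 at 7 dpi and 17.2 and 13.3 at 14 dpi. In wild type it had 18.0 and 19.3 in untouched hearts, 20.1 and 24.4 at 2 dpi, 24.1 and 26.5 at 5 dpi, 27.3 and 28.2 at 7 dpi and 21.1 and 22.1 at 14 dpi. Every injured mutant library lay above both untouched mutant libraries, and the mutant 5 dpi values were the 2 highest of the 20. It rose in mutants at 2 dpi (0.61 ± 0.13, adjusted p = 7.75e-04), 5 dpi (2.08 ± 0.13, adjusted p = 4.43e-09), 7 dpi (0.61 ± 0.13, adjusted p = 0.00368, or 0.189 with the near-identical pairs averaged) and 14 dpi (0.66 ± 0.13, adjusted p = 7.77e-04). In wild type it rose at 5 dpi (0.42 ± 0.13, adjusted p = 0.0197) and 7 dpi (0.55 ± 0.13, adjusted p = 0.00321). The mutant call at 7 dpi was lost without mutant 7 dpi replicate 1, where the difference was 0.52 (adjusted p = 0.0617). The wild-type call at 5 dpi was lost without wild-type 5 dpi replicate 2 or either wild-type untouched library, where the difference was 0.35 to 0.47 (adjusted p of 0.0507 to 0.128). Mutants had less cox4i2 than wild type in untouched hearts (-0.94 ± 0.13, adjusted p = 2.77e-05), at 2 dpi (-0.57 ± 0.13, adjusted p = 0.00126), at 7 dpi (-0.88 ± 0.13, adjusted p = 1.57e-04) and at 14 dpi (-0.48 ± 0.13, adjusted p = 0.00931), and more at 5 dpi (0.72 ± 0.13, adjusted p = 4.41e-04). The call at 14 dpi was lost without mutant 14 dpi replicate 2 or wild-type 14 dpi replicate 2, where the difference was -0.45 to -0.31 (adjusted p of 0.0556 to 0.112).

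cox5aa and cox5ab are paralogs for subunit 5A, which lies on the matrix side of the complex. In mutants cox5ab had a scaled CPM of 173 and 187 in untouched hearts, 34.4 and 31.8 at 2 dpi, 203 and 184 at 5 dpi, 143 and 143 at 7 dpi and 110.2 and 104 at 14 dpi. In wild type cox5ab had 255 and 316 in untouched hearts, 141 and 193 at 2 dpi, 144 and 139 at 5 dpi, 107 and 118 at 7 dpi and 186 and 159 at 14 dpi. The mutant untouched pair lay below the wild-type untouched pair, and the mutant 2 dpi pair was the lowest of all groups. cox5ab was lower in mutants in untouched hearts (-0.66 ± 0.13, adjusted p = 9.78e-04), at 2 dpi (-2.29 ± 0.13, adjusted p = 4.41e-09) and at 14 dpi (-0.68 ± 0.13, adjusted p = 0.00124). The fall of cox5aa was smaller, at -1.58 ± 0.14 (adjusted p = 1.21e-07) in mutants at 2 dpi, against -2.41 ± 0.13 (adjusted p = 8.42e-10) for cox5ab. cox5b2, a zinc-binding matrix subunit, had the largest fall of complex IV in wild type at 2 dpi (-1.07 ± 0.17, adjusted p = 6.36e-05).

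cox8a and cox8b are paralogs for the small subunit 8. In mutants cox8b had a scaled CPM of 736 and 739.7 in untouched hearts, 127 and 133 at 2 dpi, 789.8 and 674 at 5 dpi, 572 and 599 at 7 dpi and 451 and 402 at 14 dpi. In wild type cox8b had 600.1 and 640.1 in untouched hearts, 290.0 and 420.0 at 2 dpi, 364 and 384 at 5 dpi, 315 and 363 at 7 dpi and 594 and 496 at 14 dpi. All injured wild-type libraries lay below both untouched ones, and the mutant 5 dpi pair was the one injured mutant pair that overlapped its untouched pair. cox8b showed the largest fall of any member, at -2.50 ± 0.14 (adjusted p = 1.33e-09) in mutants at 2 dpi, and fell in wild type at 2 dpi (-0.83 ± 0.14, adjusted p = 1.81e-04). cox8a had 64.1 and 65.9 scaled CPM in mutants at 2 dpi and 122 and 178 in wild type at 2 dpi. The wild-type values at 2 dpi spanned those of untouched wild type (137 and 156), with a difference of 0.01 ± 0.13 (adjusted p = 0.962). In mutants cox8a fell at 2 dpi (-1.03 ± 0.13, adjusted p = 8.18e-06).

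The cox7a symbols are cox7a1, cox7a2a and cox7a3, of which the first 2 name forms of subunit 7A. RefSeq lists cox7a3 as cox7a2l, a supercomplex factor in mammals, and it was counted here with the subunits. In mutants cox7a2a had a scaled CPM of 62.3 and 64.1 in untouched hearts, 50.2 and 45.9 at 2 dpi, 78.8 and 77.7 at 5 dpi, 56.6 and 60.5 at 7 dpi and 44.8 and 37.0 at 14 dpi. In wild type cox7a2a had 74.5 and 107 in untouched hearts, 48.1 and 77.7 at 2 dpi, 43.4 and 40.6 at 5 dpi, 30.0 and 33.8 at 7 dpi and 39.6 and 38.6 at 14 dpi. Wild-type values at 5, 7 and 14 dpi were all below both untouched values, while those at 2 dpi overlapped them. cox7a2a had the largest fall of any member in wild type at 7 dpi (-1.46 ± 0.18, adjusted p = 1.28e-05) and at 14 dpi (-1.17 ± 0.18, adjusted p = 1.96e-04). In mutants it did not pass the threshold at 2 dpi (-0.39 ± 0.18, adjusted p = 0.0803). cox7a1 fell in mutants at 2 dpi (-1.79) and its difference in wild type at 14 dpi, -0.05 ± 0.18 (adjusted p = 0.869), did not pass the threshold.

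Among the remaining complex IV genes, cox7c had the largest fall in mutants at 14 dpi. It had 138 and 97.3 scaled CPM in mutants at 14 dpi, against 226 and 239 in untouched mutants (-1.0 ± 0.16, adjusted p = 2.03e-04). cox7b and cox7c were lower in mutants than in wild type at 2 and 14 dpi. The cox7b call at 14 dpi was lost without mutant 14 dpi replicate 2 or wild-type 14 dpi replicate 1, where the difference was -0.50 to -0.39 (adjusted p of 0.0995 to 0.128). In untouched hearts cox7b also lay lower in mutants (-0.44 ± 0.17, adjusted p = 0.0459, or 0.222 with the near-identical pairs averaged), and so did cox7c (-0.46 ± 0.16, adjusted p = 0.0335, or 0.187 with the near-identical pairs averaged). Both calls were lost without wild-type untouched replicate 2 or either mutant untouched library. That of cox7c was also lost without wild-type untouched replicate 1 (difference of -0.53 to -0.40 over these libraries). That of cox7b was also lost without wild-type 7 dpi replicate 2 or either library of mutants at 2, 5 or 7 dpi or of wild type at 5 dpi (difference of -0.45 to -0.30). cox6b1, cox6b2 and cox6c fell in mutants at 2 dpi, with log2 differences of -1.84, -1.69 and -1.17. cox6b2 was the other member that rose in mutants at 5 dpi (0.32 ± 0.13, adjusted p = 0.0497, or 0.219 with the near-identical pairs averaged). The call was lost when any single library was left out, except those of wild type at 2 dpi and mutants at 14 dpi (difference of 0.23 to 0.40, adjusted p of 0.05 to 0.272).

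In complex V all 16 genes fell in mutants at 2 dpi (median -1.47, range -2.43 to -0.78) and at 14 dpi (range -0.87 to -0.42), and none was called at 5 or 7 dpi. All 16 fell in wild type at 2 dpi (-0.88 to -0.45), 5 dpi (-0.97 to -0.45) and 7 dpi (-1.30 to -0.39), and 6 fell at 14 dpi. At 14 dpi 18.2% of all tested genes were lower in mutants and 11.6% in wild type, and the limit given for complex III applies. The summed level at 2 dpi was 31.1% of untouched in mutants and 59.6% of untouched in wild type. At 5 dpi the mutant sum stood at 100.3% of untouched and the wild-type sum at 58.6%.

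atp5b encodes the catalytic beta subunit of ATP synthase. In mutants it had a scaled CPM of 4638 and 4717 in untouched hearts, 1218 and 1187 at 2 dpi, 4349.5 and 4188 at 5 dpi, 3746 and 3725 at 7 dpi and 3176 and 2633 at 14 dpi. Wild-type libraries had 5447 and 6744 in untouched hearts, 2812 and 4156 at 2 dpi, 3375 and 3383 at 5 dpi, 2559.8 and 2816 at 7 dpi and 4506 and 4027 at 14 dpi. Each injured wild-type library was below both untouched ones, and the mutant 2 dpi pair was the lowest of all groups. It fell in mutants at 2 dpi (-1.96 ± 0.17, adjusted p = 7.17e-08) and in wild type at 7 dpi (-1.17 ± 0.17, adjusted p = 4.67e-05). atp5a1, the alpha subunit of the same catalytic head, fell in mutants at 2 dpi (-1.85 ± 0.15, adjusted p = 4.99e-08) and in wild type at 7 dpi (-0.98 ± 0.15, adjusted p = 9.74e-05). atp5o, a subunit of the stalk that holds the head, showed -1.31 ± 0.18 (adjusted p = 1.17e-05) in mutants at 2 dpi and -0.97 ± 0.18 (adjusted p = 4.87e-04) in wild type at 7 dpi.

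The central stalk genes differed in size of response. In mutants at 2 dpi the log2 difference was -1.50 for atp5c1 (gamma), -0.78 for atp5d (delta) and -1.17 for atp5e (epsilon), all 3 past the threshold. atp5d had 352 and 352 scaled CPM in mutants at 2 dpi and 352 and 501 in wild type at 2 dpi. The groups met at the lower wild-type value, and the difference was -0.26 ± 0.15 (adjusted p = 0.156). atp5d and atp5ib were the 2 genes of complex V not lower in mutants than in wild type at 2 dpi.

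The proton-carrying c ring is encoded by atp5g1, atp5g3a and atp5g3b, whose mammalian counterparts encode the same mature protein, and reads of these genes could be shared between them. In mutants atp5g3b had a scaled CPM of 1338 and 1513 in untouched hearts, 281 and 246 at 2 dpi, 1899.9 and 1625 at 5 dpi, 1157 and 1142 at 7 dpi and 983 and 727 at 14 dpi. Its wild-type values were 1614 and 1949 in untouched hearts, 907 and 1302 at 2 dpi, 1024 and 1167 at 5 dpi, 860.0 and 885 at 7 dpi and 1752 and 1385 at 14 dpi. The mutant 2 dpi pair lay below every other library. atp5g3b showed the largest fall of complex V in mutants at 2 dpi (-2.43 ± 0.18, adjusted p = 1.61e-08) and, at 2 dpi, the largest difference of responses between genotypes among the members (-1.72 ± 0.25, adjusted p = 7.57e-05). atp5g1 had the largest fall of complex V in wild type at 7 dpi (-1.30 ± 0.15, adjusted p = 6.17e-06) and at 14 dpi (-0.91 ± 0.15, adjusted p = 3.20e-04). It was the one complex V gene lower in untouched mutants (-0.59 ± 0.15, adjusted p = 0.00489, or 0.0734 with the near-identical pairs averaged). This call did not hold without wild-type untouched replicate 2, where the difference was -0.42 (adjusted p = 0.0779).

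The peripheral stalk and membrane genes atp5f1, atp5h, atp5j, atp5l, atp5ia and atp5ib all fell in mutants at 2 dpi, from -1.94 (atp5h) to -0.95 (atp5ib). atp5j, coupling factor 6, had 233 and 180.3 scaled CPM in mutants at 14 dpi and 465 and 375 in wild type at 14 dpi. The mutant values were below both wild-type ones, and the difference was -1.02 ± 0.16 (adjusted p = 1.97e-04). atp5j was one of 3 members whose response differed at 14 dpi (-0.69 ± 0.22, adjusted p = 0.0264, or 0.119 with the near-identical pairs averaged). This call was lost without mutant 14 dpi replicate 2, either mutant untouched library, wild-type 14 dpi replicate 1 or wild-type untouched replicate 1, where the difference was -0.70 to -0.51 (adjusted p of 0.064 to 0.116). atp5s, which is no subunit, had the smallest fall of this set in wild type at 7 dpi (-0.39 ± 0.14, adjusted p = 0.0369, or 0.0908 with the near-identical pairs averaged). This call of atp5s was lost without either mutant 2 dpi library, wild-type 7 dpi replicate 1 or wild-type untouched replicate 2, where the difference was -0.38 to -0.23 (adjusted p of 0.0511 to 0.326).

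Relative amounts of paralogs were compared within libraries, as a log2 ratio of 2 genes in each library that no scaling can change except through the pseudocount of 1. Because the genes differ in length and may share reads, only changes of a ratio are read. For 10 pairs the 16 injured libraries were set against the 4 untouched ones by a two-sided exact permutation test within genotype, with 2025 arrangements and a smallest possible p of 4.94e-04. Mutant and wild-type libraries, 10 of each, were compared in the same way within time, with 7776 arrangements and a smallest possible p of 2.57e-04. Adjustment was over the 10 pairs of each test.

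**Figure D3:**
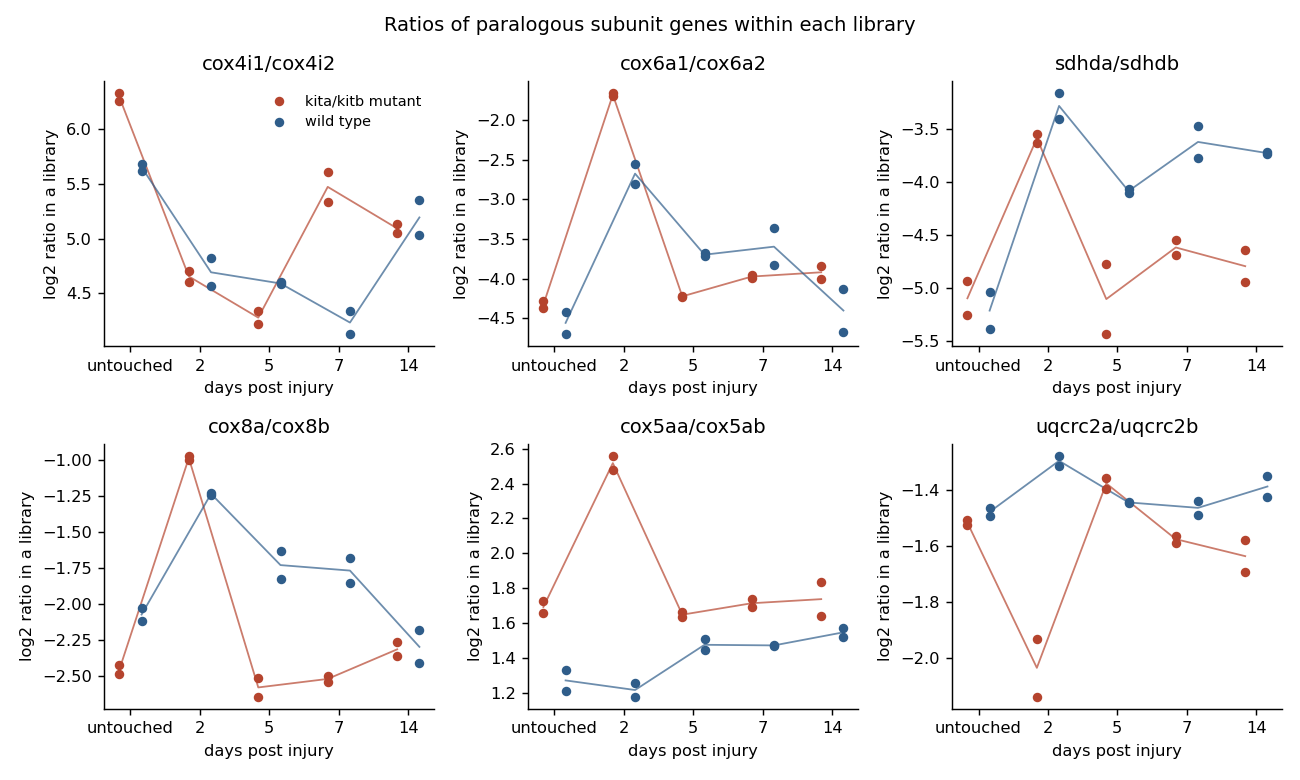
Log2 ratio of 2 paralogous genes within a library (vertical axes, not from 0) for 6 pairs by days post injury (evenly spaced), mutants left and wild type right at each time; points are libraries and lines join group means. The cox4i1/cox4i2 ratio is highest in untouched hearts, the cox6a1/cox6a2 ratio peaks at 2 dpi in both genotypes, and the mutant cox5aa/cox5ab ratio lies above wild type at every time.

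The cox4i1/cox4i2 ratio was lower in injured than in untouched hearts, with a mean difference of -1.20, p = 4.94e-04, adjusted p = 0.00494 (exact permutation test). In mutants it was 6.33 and 6.26 in untouched hearts, 4.61 and 4.70 at 2 dpi, 4.21 and 4.34 at 5 dpi, 5.34 and 5.61 at 7 dpi and 5.05 and 5.13 at 14 dpi. Wild-type ratios were 5.62 and 5.68 in untouched hearts, 4.56 and 4.82 at 2 dpi, 4.58 and 4.60 at 5 dpi, 4.13 and 4.34 at 7 dpi and 5.35 and 5.04 at 14 dpi. Every injured library lay below every untouched library of its genotype. The adjusted p was 0.0317 with the near-identical pairs averaged. Between genotypes the ratio differed by 0.29, p = 0.109, adjusted p = 0.155 (exact permutation test), which did not pass the threshold.

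The sdhda/sdhdb ratio differed between injured and untouched hearts by 0.57 in mutants and 1.53 in wild type. In mutants sdhda lay between 0.633 and 1.61 scaled CPM throughout, where the pseudocount of 1 sets much of the ratio. Over both genotypes the difference was 1.05, p = 0.00395, adjusted p = 0.0198 (exact permutation test), past the threshold, but not with the pairs averaged (adjusted p = 0.127). The call also failed with wild-type untouched replicate 1 left out (0.97, adjusted p = 0.0864), wild-type untouched replicate 2 (1.14, adjusted p = 0.0741) or mutant untouched replicate 2 (0.97, adjusted p = 0.0617) in the exact permutation test. It lay lower in mutants than wild type, with a difference of -0.65, p = 0.00257, adjusted p = 0.00857 (exact permutation test), or an adjusted p of 0.018 with the pairs averaged. In untouched hearts the sdhda/sdhdb ratios of the genotypes overlapped, at -4.936 and -5.258 in mutants against -5.385 and -5.041 in wild type. The cox6a1/cox6a2 ratio was -1.66 and -1.70 in mutants at 2 dpi, against -4.38 and -4.28 in untouched mutants. In wild type it was -2.55 and -2.80 at 2 dpi, against -4.70 and -4.42 in untouched hearts. Over all injured libraries the difference was 0.92, p = 0.0425, adjusted p = 0.142 (exact permutation test), not past the threshold after adjustment.

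Other pairs passed the test between genotypes and not the one for injury. The cox5aa/cox5ab ratio was higher in mutants by 0.47, p = 2.57e-04, adjusted p = 0.00257 (exact permutation test), with both mutant libraries above both wild-type ones at every time. In mutants it was 1.73 and 1.66 in untouched hearts, 2.48 and 2.56 at 2 dpi, 1.63 and 1.67 at 5 dpi, 1.69 and 1.74 at 7 dpi and 1.84 and 1.64 at 14 dpi. Wild-type ratios were 1.33 and 1.21 in untouched hearts, 1.18 and 1.26 at 2 dpi, 1.45 and 1.51 at 5 dpi, 1.47 and 1.47 at 7 dpi and 1.52 and 1.57 at 14 dpi. The gap between genotypes was widest at 2 dpi, where the mutant pair alone was of lane 7. The cox6b1/cox6b2 ratio was higher in mutants by 0.29 over all times, p = 0.0036, adjusted p = 0.009 (exact permutation test). In untouched hearts the genotypes overlapped, at -0.234 and -0.110 in mutants against -0.478 and -0.077 in wild type. At 2 dpi they overlapped too, at -0.337 and -0.308 in mutants against -0.478 and -0.330 in wild type. The cox7a1/cox7a3 ratio was lower over all times, with a difference of -0.27, p = 0.00231, adjusted p = 0.00857 (exact permutation test). At 5 dpi the cox7a1/cox7a3 ratio lay higher in mutants, at 0.80 and 0.77 against 0.69 and 0.71 in wild type.

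The cox8a/cox8b ratio was lower in mutants over all times, with a difference of -0.35, p = 0.0167, adjusted p = 0.0279 (exact permutation test). At 2 dpi it lay higher in mutants, at -0.97 and -1.0 against -1.24 and -1.23 in wild type. At 5 dpi it lay lower, at -2.64 and -2.51 in mutants against -1.63 and -1.83 in wild type. At 7 dpi it was -2.50 and -2.54 in mutants against -1.68 and -1.85 in wild type. The direction at 2 dpi was thus opposite to that at 5 and 7 dpi. At 14 dpi the genotypes overlapped, at -2.27 and -2.36 in mutants against -2.41 and -2.18 in wild type. The uqcrc2a/uqcrc2b ratio was lower in mutants over all times, with a difference of -0.21, p = 0.00977, adjusted p = 0.0195 (exact permutation test). At 5 dpi this ratio lay higher in mutants, at -1.356 and -1.394 against -1.445 and -1.441 in wild type. Its mutant 2 dpi libraries were -1.93 and -2.14, and without that pair the difference was -0.083 with an adjusted p of 0.0977 (exact permutation test). All 6 genotype calls held with the near-identical pairs averaged, with adjusted p from 0.0103 to 0.0429 in the exact permutation test. The atp5g1/atp5g3b and atp5ia/atp5ib ratios passed neither test.

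Mutant and wild-type cardiomyocytes were then compared at each time. In untouched hearts 10 of the 51 genes were lower and 1 higher in mutants (median -0.20), against 21.2% and 18.9% of all tested genes, so the share of members called lower was close to the background. At 2 dpi 43 were lower and 1 higher (median -1.01, background 30.3% and 27.3%). At 5 dpi 1 was lower and 39 higher (median 0.59, background 19.5% and 19.1%). At 7 dpi 2 were lower and 32 higher (median 0.49, background 14.0% and 13.1%). At 14 dpi 28 were lower and none higher (median -0.40, background 14.8% and 16.2%).

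With the near-identical pairs averaged the counts lower and higher in mutants were 3 and 1 in untouched hearts, 40 and 0 at 2 dpi, 1 and 37 at 5 dpi, 1 and 4 at 7 dpi, and 16 and 0 at 14 dpi. The shares of all genes in that fit were 11.0% and 10.3% in untouched hearts, 21.8% and 19.9% at 2 dpi, 15.8% and 14.4% at 5 dpi, 4.18% and 3.57% at 7 dpi and 10.6% and 12.2% at 14 dpi. The untouched count of 11 was 5 without wild-type replicate 2, 6 without mutant replicate 1 and 7 without mutant replicate 2. The 5 dpi count was 24 without wild-type replicate 1 and 23 without mutant replicate 1. At 7 dpi 16 genes were called without wild-type replicate 1 and 18 without either mutant library. At 14 dpi 10 were called without wild-type replicate 1 and 10 without mutant replicate 2. The untouched count was also 18 on CPM as deposited and 19 after quantile normalization.

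**Figure D4:**
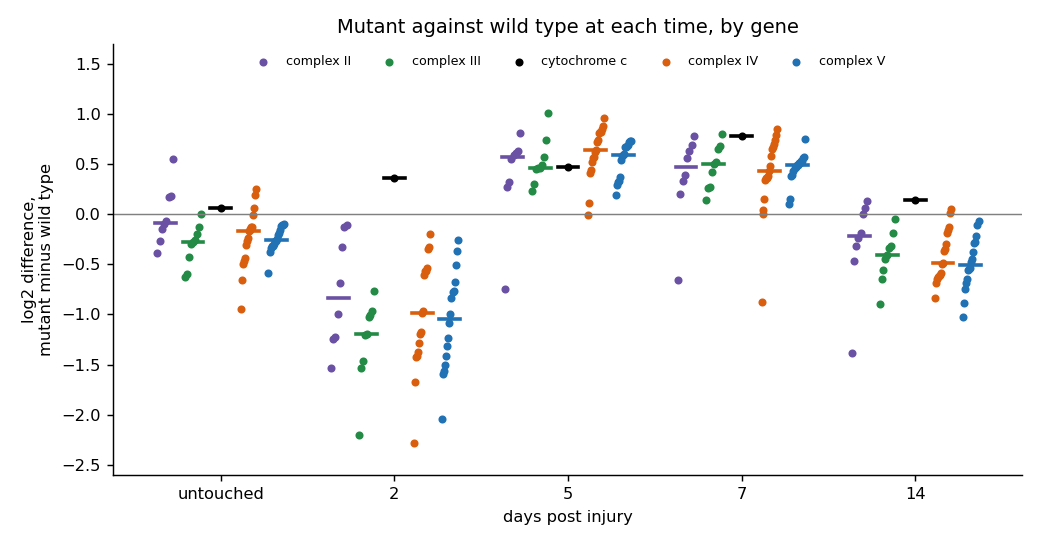
Log2 difference of scaled CPM + 1, mutant minus wild type (vertical axis), for each of the 51 genes at each time (evenly spaced), coloured by complex; points are genes and bars are medians of a complex. Most points lie below 0 at 2 and 14 dpi and above 0 at 5 and 7 dpi, with cytochrome c above 0 at 2 dpi.

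By complex, the median difference of mutants from wild type at 2 dpi was -0.84 for complex II, -1.20 for complex III, -0.99 for complex IV and -1.04 for complex V. At 5 dpi the medians were 0.57, 0.46, 0.64 and 0.60 in the same order. The change from untouched was also tested for a difference between genotypes. At 2 dpi 37 genes had a lower response in mutants and none a higher one (median -0.77, background 20.3% and 20.6%). At 5 dpi 42 had a higher response and none a lower one (median 0.80, background 17.8% higher and 17.2% lower). At 7 dpi 30 had a higher response and none a lower one (median 0.71, background 9.19% higher and 9.57% lower).

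At 14 dpi the response differed for 3 genes, all lower in mutants (background 15.7% lower and 17.5% higher), which is under the background share. On CPM as deposited the split at 14 dpi was 2 lower and 4 higher, and after quantile normalization 2 lower and 3 higher. With the near-identical pairs averaged the counts were 20 lower at 2 dpi, 19 higher at 5 dpi, 0 at 7 dpi and 0 at 14 dpi, and the shares of all genes lower and higher were 9.6% and 9.65%, 9.6% and 7.37%, 2.6% and 1.22% and 9.64% and 10.2% at these times. The 7 dpi count ranged from 13 to 19 when any one library of untouched mutants, mutants at 7 dpi, wild-type untouched replicate 2 or wild-type 7 dpi replicate 1 was left out. The 14 dpi count was 1 without wild-type replicate 1 of untouched or of 14 dpi or either untouched mutant library, 6 without wild-type 14 dpi replicate 2, 9 without either wild-type 2 dpi library, and 12 without mutant 14 dpi replicate 1. These 4 differences of responses share the same untouched libraries.

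Most cardiomyocyte markers fell beside the respiratory genes at 2 dpi in both genotypes and at 7 dpi in wild type, but few did at 14 dpi. The summed level of the 14 markers was 122624 to 124336 scaled CPM in untouched mutants, 53391 to 54092 at 2 dpi, 103476 to 105567 at 5 dpi, 106074 to 106712 at 7 dpi and 87536 to 110349 at 14 dpi. In wild type it was 120513 to 131110.0, 59901 to 84476, 79512 to 100689, 73425 to 76532 and 103161 to 120046 at the same times. Of the 14 markers, 12 fell and 1 rose in mutants at 2 dpi (median -1.12), against 24.9% and 27.5% of all tested genes. In mutants 1 fell at 5 dpi (background 25.3% lower and 26.0% higher). None was called in mutants at 7 dpi (background 5.74% and 8.83%). At 14 dpi in mutants 3 fell and 1 rose (median -0.34, background 18.2% and 21.3%). In wild type 12 fell and 1 rose at 2 dpi (median -0.69, background 25.2% and 26.4%). At 5 dpi 7 fell and 1 rose (median -0.45, background 17.0% and 15.9%). At 7 dpi 11 fell (median -0.64, background 17.3%). At 14 dpi in wild type none fell and 1 rose, against 11.6% and 13.2%. With the near-identical pairs averaged, fewer markers fell in mutants at 2 and 14 dpi and in wild type at 5 and 7 dpi. As many fell in wild type at 2 dpi. That fit leaves 1 library for untouched mutants. In these bulk libraries fewer cardiomyocytes and less RNA per cardiomyocyte cannot be told apart.

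**Figure D5:**
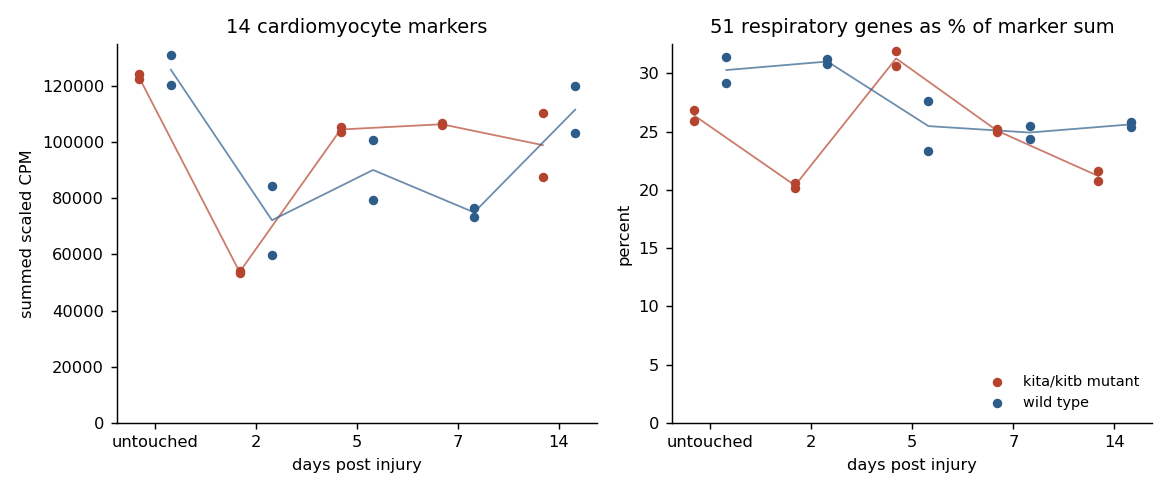
Left, summed scaled CPM of 14 cardiomyocyte markers in every library; right, the summed scaled CPM of the 51 respiratory genes as a percentage of that marker sum; both by days post injury (evenly spaced), mutants left and wild type right, points being libraries and lines joining group means. The percentage is lowest in mutants at 2 and 14 dpi, where none of the 4 libraries lies above 21.6%.

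Set against the marker sum in the same library, the 51 genes amounted to 25.9% and 26.9% in untouched mutants, 20.6% and 20.1% at 2 dpi, 31.9% and 30.6% at 5 dpi, 24.9% and 25.2% at 7 dpi, and 20.7% and 21.6% at 14 dpi. In wild type they amounted to 29.1% and 31.4% in untouched hearts, 30.8% and 31.2% at 2 dpi, 27.6% and 23.3% at 5 dpi, 24.3% and 25.5% at 7 dpi, and 25.8% and 25.4% at 14 dpi. The wild-type percentages at 2 dpi lay within the range of untouched wild type, while those of mutants at 2 dpi lay below both untouched mutant libraries. At 5 dpi the mutant percentages were above, and at 7 and 14 dpi below, those of untouched mutants. In wild type, those at 5, 7 and 14 dpi also lay below both untouched libraries.

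Markers of other cell types were counted beside the shares over all tested genes. These were 24.9% lower and 27.5% higher in mutants at 2 dpi, and 17.3% and 17.5% in wild type at 7 dpi. In mutants 26.0% rose at 5 dpi, and 18.2% fell and 21.3% rose at 14 dpi. In untouched hearts 18.9% were higher in mutants than in wild type. All 14 tested epicardial and fibroblast markers rose in mutants at 2 dpi, with a sum of 26821 to 27629.8 scaled CPM against 5260.4 to 5289 in untouched mutants. In wild type all 14 rose at 7 dpi, with a sum of 20674 to 25709 against 5422 to 5653 in untouched hearts. Mutants at 5 dpi, where 1 of the 51 respiratory genes fell, had a fibroblast sum of 21081 to 21224, and all 14 markers had risen. Macrophage markers rose for 9 of 12 in mutants at 2 dpi (sum 1396 to 1434 against 721 to 737 in untouched mutants) and for 12 of 12 in wild type at 7 dpi (sum 1355 to 1951 against 363 to 371 in untouched wild type). Neutrophil markers were highest in untouched mutants, at 1265 to 1272, against 77.8 to 103 in untouched wild type, and all 7 tested were higher there. Against untouched, 5 of the 7 fell in mutants at 2 dpi (median -3.68) and all 7 at 14 dpi (median -3.92), while 6 rose in wild type at 7 dpi (median 1.86). Of 10 endothelial and endocardial markers 7 fell and 1 rose in mutants at 2 dpi, and 7 fell in wild type at 7 dpi. Of 5 erythrocyte markers 2 rose in mutants at 2 dpi and 1 fell in wild type at 7 dpi. Of 5 smooth muscle markers 1 rose in mutants at 2 dpi, while 1 fell and 1 rose in wild type at 7 dpi. With 5 genes in each list, counts of 1 or 2 cannot be set apart from the shares over all genes. In mutants at 14 dpi all 5 smooth muscle markers rose, with a sum of 1242 to 1734 scaled CPM against 505 to 507 in untouched mutants, and 13 of the 14 fibroblast markers rose. In the fit with the 3 pairs averaged, the markers that rose in mutants at 2 dpi numbered 12 of 14 epicardial and fibroblast ones, 6 of 12 macrophage ones, none of the erythrocyte ones and none of the endothelial ones. In mutants at 14 dpi they numbered 3 of 5 smooth muscle and 11 of 14 fibroblast ones, and in wild type at 7 dpi 5 of 7 neutrophil ones. No marker in the matrix was at 0 in any library, and the part of these markers in the respiratory results was not tested.

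The other genes of the pathway were counted from lists of symbols. Complex I feeds electrons from NADH into the chain, and all 34 of its tested genes fell in mutants at 2 dpi (median -1.71). In mutants at 5 dpi 1 fell and 1 rose, against 25.3% and 26.0% of all tested genes. In mutants 3 fell at 7 dpi, against 5.74%, and 32 fell at 14 dpi, against 18.2%. In wild type 33 fell at 2 dpi, 34 at 5 dpi, 33 at 7 dpi (median -1.02) and 21 at 14 dpi. The shares of all genes lower in wild type were 25.2%, 17.0%, 17.3% and 11.6% at these times. In the averaged fit, the complex I genes that fell numbered 34, 0, 0 and 18 in mutants at 2, 5, 7 and 14 dpi, none rose at 5 dpi, and 32, 32, 33 and 13 fell in wild type at the same times. The list of assembly factors had 26 tested genes, 3 of them also among the 51. Of these, 24 fell in mutants at 2 dpi (median -1.06) and 18 fell in wild type at 7 dpi (median -0.53). Of 9 regulators of mitochondrial transcription, 4 fell in mutants at 2 dpi (median -0.15), and 3 fell and 1 rose in wild type at 7 dpi (median -0.15). Of 5 other electron carriers and ATP synthase inhibitors, 4 fell in mutants at 2 dpi and 5 in wild type at 7 dpi. After the same averaging, the genes that fell in mutants at 2 dpi and in wild type at 7 dpi numbered 21 and 12 of the assembly factors, 2 and 3 of the regulators, and 4 and 4 of the other carriers and inhibitors. Over all tested genes, 24.9% fell in mutants at 2 dpi and 17.3% in wild type at 7 dpi, or 14.1% in mutants at 2 dpi with the pairs averaged. In that averaged fit 17.4%, 0.534% and 8.82% fell in mutants at 5, 7 and 14 dpi, and 7.9% in wild type at 14 dpi. Its shares are not given for wild type at 2, 5 and 7 dpi. Averaged counts of markers and gene lists at those times therefore have no background beside them.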

How the data were processed

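Values in the deposited matrix are CPM (reads per gene scaled to a fixed library total), which the authors made from polyadenylated RNA reads of isolated cardiomyocytes, 20 libraries in 10 groups of 2. The submitters' processing notes name FastQC, featureCounts and danRer10, with no version, and neither an aligner nor an annotation is given in the sources used here. Whole reads were recovered from the CPM steps for 100% of values within 0.1 read. Totals were 14.6 to 31.7 M assigned reads, and the labels do not say whether the 2 libraries of a group came from separate preparations, so p-values measure only the spread between these libraries, which may be technical.

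CPM were divided by median-ratio library factors (0.881 to 1.18, from 11000 genes), and log2(scaled CPM + 1) was fitted over all 20 libraries with limma 3.58.1 (trended prior) in R 4.3.3, for 10914 genes at 1 CPM or more in 2 or more libraries, out of 14781 named. There were 10 residual degrees of freedom. P-values were adjusted by Benjamini-Hochberg over all tested genes at 0.05. The pseudocount understates differences of low genes. Ratios of paralogs were compared by exact permutation tests. The tests were checked on simulated data. The 3 lines that name no gene held no library values and were left out.

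All members were counted by complex. Those described singly are the 3 with the highest mean per complex, the largest fall and rise per complex and contrast, members moving against their complex, paralog pairs, and members differing between genotypes the same way at 2 or more times. Members, gene lists and tests were chosen with earlier results of these data known. The alternatives tried were CPM as deposited, quantile normalization, other filters, each genotype alone, a replicate block, 0.25 as pseudocount, each library left out, near-identical pairs averaged, subunits only and, added after seeing the data, edgeR 4.0.16 on recovered reads and the mutant 2 dpi pair left out. The source label of the 14 dpi samples reads 4 dpi, and the titles and time labels, which read 14 dpi, were followed. No sequences are printed.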

Additional observations from a re-analysis of the deposited data

Results flagged for a closer look

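The change from untouched hearts differed between mutants and wild type for many of the 51 genes when the difference itself was tested in limma over all 20 libraries. At 2 dpi it differed for 37 genes, all with the lower response in mutants, against 20.3% of all tested genes, from -1.72 on the log2 scale for atp5g3b, a c-ring gene of ATP synthase, to -0.50 for sdha, the flavoprotein of complex II. At 5 dpi it differed for 42 genes, all higher in mutants, against 17.8%, from 0.55 for cox7a3 to 1.66 for cox4i2. At 7 dpi it differed for 30 genes, all higher in mutants, against 9.19%, from 0.62 for atp5g3a to 1.35 for cox7a2a. At 14 dpi it differed for 3 genes, all lower in mutants, from -1.11 for sdhda to -0.60 for cox8b. This is under the share over all tested genes, 15.7% lower and 17.5% higher, and on CPM as deposited the split was 2 lower and 4 higher. With the near-identical pairs averaged the counts at all these times were smaller, in a fit that leaves 1 library for untouched mutants. The 7 and 14 dpi counts also depended on which single library was left out. Only the mutant 2 dpi pair carried the label of lane 7, so the 2 dpi difference cannot be told apart from one of lane.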

How the results depend on the processing

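The counts of called genes at 2 dpi in mutants and at 2, 5 and 7 dpi in wild type stayed within 1.5 times under every alternative run. Elsewhere the alternatives moved counts as follows, and the cause was not tested except that averaging pairs and fitting 1 genotype change the residual degrees of freedom. With the near-identical pairs averaged, counts were 1, 0 and 21 in mutants at 5, 7 and 14 dpi, 15 in wild type at 14 dpi, 0 in mutants and 17 in wild type at 14 against 7 dpi, 4, 5 and 16 between genotypes in untouched hearts and at 7 and 14 dpi, and 20, 19, 0 and 0 for the difference of responses at 2, 5, 7 and 14 dpi. With each genotype fitted alone, they were 9 and 23 in mutants at 5 and 7 dpi, 13 in wild type at 14 dpi, and 36 in mutants and 10 in wild type at 14 against 7 dpi. Quantile normalization gave 8 in mutants at 5 dpi, 19 in mutants at 14 against 7 dpi, 19 between genotypes in untouched hearts and 5 for the response at 14 dpi, and CPM as deposited gave 18 and 6 for the last 2 of these. Without a filter 5 members, and without the mutant 2 dpi pair 4, were called in mutants at 14 against 7 dpi. In mutants at 7 dpi the count was 1 under CPM as deposited, quantile normalization, no filter, the replicate block, edgeR and without the mutant 2 dpi pair. Counting the 47 subunit and carrier genes alone kept all 19 counts within 1.5 times.

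Leaving out 1 library at a time gave 49 to 50, 1 to 5, 0 to 11 and 28 to 47 genes in mutants at 2, 5, 7 and 14 dpi, 40 to 49, 34 to 48, 46 to 50 and 7 to 33 in wild type, and 0 to 27 in mutants and 2 to 42 in wild type at 14 against 7 dpi. Between genotypes it gave 5 to 16, 38 to 47, 23 to 47, 16 to 39 and 10 to 31 in untouched hearts and at 2, 5, 7 and 14 dpi, and for the difference of responses 32 to 45, 32 to 44, 13 to 37 and 1 to 12. For the paralog ratios, differences in exact permutation tests after injury ranged from -0.179 to 0.0217 for cox6b1/cox6b2, -0.0348 to 0.0512 for cox7a1/cox7a3, -0.0509 to 0.00502 for uqcrc2a/uqcrc2b, -0.0638 to 0.00537 for atp5ia/atp5ib and 0.966 to 1.14 for sdhda/sdhdb, and between genotypes from -0.00888 to 0.0345 for atp5ia/atp5ib. The sdhda/sdhdb difference was 0.979 with pairs averaged. Without the mutant 2 dpi pair, the injury difference of uqcrc2a/uqcrc2b was 0.0339 and the genotype differences were -0.0477 for cox6a1/cox6a2 and -0.083 for uqcrc2a/uqcrc2b.

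Correlations of the replicate differences ranged from -0.293 to 0.143 over 45 pairs of groups, so no pairing of samples by number was seen. Pairing is not excluded, since in the 3 near-identical groups the replicate difference is near that of read sampling. The fit with a replicate block gave 49 genes in mutants and 49 in wild type at 2 dpi. Of 586 calls of single members, the alternatives kept 583 with edgeR, 568 with the block, 544 after quantile normalization, 542 on CPM as deposited and 384 with pairs averaged. One call, atp5a1 between genotypes at 14 dpi, changed sign after quantile normalization (0.024). Of the medians by complex and contrast, 41 moved by more than the SD between replicates on CPM as deposited and 35 did not. After quantile normalization 30 moved and 46 did not. On CPM as deposited the median of all tested genes shifted by up to 0.30 on the log2 scale (mutants at 2 dpi), and the medians of complex II and III in mutants at 5 dpi and of complex III and V for the response at 14 dpi changed sign with the scaling. At 14 dpi these were -0.15 for complex III and -0.23 for complex V as reported, against 0.05 on CPM as deposited for complex III and 0.06 after quantile normalization for complex V.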
